A study of Homo sapiens with 4 samples.

Results

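Stem cell marker genes of the colorectal epithelium were followed in HCT116 cells in which C14orf159 had been knocked out. The 10 genes were chosen by symbol: PROM1, BMI1, LGR5, ASCL2, ALCAM, CD44, LRIG1, MSI1, MSI2 and SOX9. All 10 were found among the 26255 gene symbols of the deposited tables. HCT116 is an established human colorectal cancer line that carries an activating mutation of β-catenin. KO replicates 1 and 2 were HCT116 cells with a C14orf159 knockout, in columns headed sgDGLUCY after the current name of that gene. EV control replicates 1 and 2 were HCT116 cells given an empty vector per the labels, in columns headed AAVS1, a locus commonly edited as a harmless control. Whether a guide against AAVS1 was used in them is not settled. No drug treatment or time point is given for either group. The labels do not say whether the KO cells were a clone or a pool, or where the gene was edited. The study set out to find why C14orf159, a gene for a mitochondrial matrix protein, lowers migration, invasion and spheroid growth, and its title names Wnt/β-catenin signalling.

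The marker set was put together with the difference between KO and EV control already known, PROM1 leading it. Differences of the 10 genes between these groups are therefore descriptions, with no p-value for any of them. Counts of them past a threshold are given beside the share of all tested genes, and again by processing setting at the end. They support nothing. Levels are FPKM, fragments per kilobase of transcript scaled to library size, so that levels of different genes can be set side by side. Differences are on the log2(FPKM + 1) scale, KO minus EV control, which understates the change of low genes. The SE of a difference is a moderated value, drawn toward the spread of genes of similar level. It does not rest on the values of that gene alone. The labels do not tell whether replicates were separate cultures, so a p-value reflects differences among 4 libraries that may be technical. In bulk RNA, fewer cells of a type and less RNA per cell cannot be told apart.

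In the normal intestine, stem cells sit at the base of the crypts and are kept there by Wnt signals. LGR5, a receptor for R-spondins, and ASCL2, a transcription factor, mark the dividing crypt base cells. SOX9 is a Wnt-responsive transcription factor of the crypt, LRIG1 restrains ERBB receptors, and the Musashi proteins MSI1 and MSI2 bind RNA and control its translation. BMI1 is a subunit of Polycomb repressive complex 1. PROM1 (CD133), CD44 and ALCAM (CD166) are surface glycoproteins used to sort cells with tumour-initiating capacity from colorectal cancers, CD44 binding hyaluronan and ALCAM acting in cell adhesion.

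The libraries were checked in 4 respects. C14orf159 stood at 2.52 and 10.8 FPKM in the KO libraries, against 16.2 and 16.4 FPKM in the EV control libraries, so KO replicate 2 kept 66.2% of the EV control mean. Each library held an estimated 12.5 to 13.4 M fragments, a rough figure. The epithelial genes EPCAM, KRT8, KRT18, KRT19 and CDH1 ranged from 22.8 to 1540 FPKM. Of 9 genes of leukocytes, endothelium and fibroblasts, CD68 alone reached 1 FPKM, while PTPRC, CD3E, LUM and DCN were listed at 0 in all libraries. Since the KO libraries differ in the C14orf159 level, each is given by itself.

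PROM1 and BMI1 were the members with the highest differences, and the promoter windows below are shown because both genes lay higher in both KO libraries. PROM1 lies on chromosome 4 and has several annotated starts, and BMI1 lies on chromosome 10 directly downstream of COMMD3. Sequences are from RefSeq (GRCh38.p14), 250 bases before to 50 bases after a start, read 5′ to 3′ on the strand of the gene. Of the 10 members, 6 matched the promoter table, with 14 windows; LGR5, ASCL2, MSI1 and SOX9 did not. The deposited values rest on hg19, and FPKM per gene does not tell which start was used. Capitals mark matches on either strand to CTTTGA or CTTTGT, core letters bound by TCF/LEF factors, to ACGTG, core letters of the hypoxia response element, or to CACGTG, an E-box that holds ACGTG on both strands.
PROM1 start 1, chr4:16083974-16084273, minus strand: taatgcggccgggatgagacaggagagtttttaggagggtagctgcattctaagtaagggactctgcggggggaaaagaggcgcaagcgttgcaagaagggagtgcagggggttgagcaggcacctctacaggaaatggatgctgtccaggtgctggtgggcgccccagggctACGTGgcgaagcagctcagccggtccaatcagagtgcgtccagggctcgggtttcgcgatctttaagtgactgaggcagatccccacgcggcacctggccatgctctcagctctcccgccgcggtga
PROM1 start 2, chr4:16083680-16083979, minus strand: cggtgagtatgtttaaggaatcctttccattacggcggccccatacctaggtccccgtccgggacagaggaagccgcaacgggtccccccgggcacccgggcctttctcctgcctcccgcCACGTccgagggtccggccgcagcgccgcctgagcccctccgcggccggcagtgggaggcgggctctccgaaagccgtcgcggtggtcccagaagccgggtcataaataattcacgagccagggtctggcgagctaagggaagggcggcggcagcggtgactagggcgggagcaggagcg
PROM1 start 4, chr4:16076069-16076368, minus strand: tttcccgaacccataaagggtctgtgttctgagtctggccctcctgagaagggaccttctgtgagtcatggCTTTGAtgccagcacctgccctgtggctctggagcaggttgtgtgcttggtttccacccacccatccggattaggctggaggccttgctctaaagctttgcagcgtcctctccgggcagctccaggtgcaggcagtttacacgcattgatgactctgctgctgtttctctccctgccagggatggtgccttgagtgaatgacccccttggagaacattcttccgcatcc
COMMD3 start, chr10:22316138-22316437, plus strand: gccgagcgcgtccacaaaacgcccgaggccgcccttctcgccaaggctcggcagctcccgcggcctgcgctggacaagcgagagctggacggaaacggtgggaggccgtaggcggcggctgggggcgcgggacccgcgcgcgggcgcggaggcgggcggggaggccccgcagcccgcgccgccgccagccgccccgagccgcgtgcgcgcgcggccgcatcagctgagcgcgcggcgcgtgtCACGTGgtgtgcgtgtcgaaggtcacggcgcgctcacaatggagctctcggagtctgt
BMI1 start 1, chr10:22320849-22321148, plus strand: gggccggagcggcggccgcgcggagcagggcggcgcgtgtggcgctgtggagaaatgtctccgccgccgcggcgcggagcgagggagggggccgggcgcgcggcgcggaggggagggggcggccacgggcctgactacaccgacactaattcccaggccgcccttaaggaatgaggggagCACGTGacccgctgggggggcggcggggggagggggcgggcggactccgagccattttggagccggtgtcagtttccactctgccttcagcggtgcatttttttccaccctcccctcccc

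PROM1 starts 1 and 2 each hold ACGTG, at -77 and -130 from the start. PROM1 start 3 holds none of the searched letters and is not printed. CTTTGA occurs at PROM1 start 4, at -179, and CTTTGT at none of the 4. COMMD3 and BMI1 start 1 both hold CACGTG, at -8 and at -70. BMI1 start 2 holds none of the searched letters and is not printed. Of 35116 windows of the same length in the table, 12.9% hold CTTTGA, 16.1% hold CTTTGT, 21.4% hold ACGTG and 7.26% hold CACGTG. The letters at PROM1 starts 1 and 2 also occur, within CACGTG, at COMMD3 and BMI1 start 1, genes higher in both KO libraries. They occur as well at CD44 start 1, LRIG1 starts 1 and 2 and MSI2 starts 1 and 2. KO levels of those genes lay lower or overlapped. The windows of LRIG1 starts 1 and 2 overlap and share the same match. MSI2 start 1 also holds the letters of PROM1 start 4, on both strands. These matches describe letters in a window, not bound sites.

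PROM1, the CD133 gene, stood at 8.24 FPKM in KO replicate 1 and 10.2 FPKM in KO replicate 2, against 1.95 and 2.17 FPKM in the EV control replicates. Both KO libraries were far above both EV control libraries. The means were 9.23 ± 1.39 FPKM in KO and 2.06 ± 0.155 FPKM in EV control cells (SD, n = 2 each), a ratio of 4.48, and the log2 difference was 1.73 (SE 0.13). Taken alone, KO replicate 1 lay 1.60 and KO replicate 2 lay 1.87 above the EV control mean on that scale. At the longest annotated coding transcript, these levels correspond to about 447 and 571 fragments in KO libraries and 110 and 126 fragments in EV control libraries. PROM1 ranked 19 of the 12701 genes tested by log2 difference. PROM2, the paralog of PROM1, had 5.34 and 3.77 FPKM in KO libraries, against 2.87 and 3.25 FPKM in EV control libraries. Its KO values also exceeded the EV control values, but the difference of 0.44 (SE 0.17) missed the threshold (limma-trend, adjusted p = 0.305).

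The genes around PROM1 were compared next. Of the 10 tested neighbours on chromosome 4, 5 on each side in RefSeq order, 1 had both KO libraries above both EV control libraries and 6 had them below, beside 26.5% and 25.6% of all tested genes. FGFBP1, a secreted carrier of fibroblast growth factors and the nearest tested gene on one side, had 14.6 and 8.84 FPKM in KO libraries, against 17.4 and 16.2 FPKM in EV control libraries. TAPT1, the nearest on the other side, had 3.14 and 2.98 FPKM in KO libraries, against 2.99 and 3.49 FPKM in EV control libraries. The neighbours' log2 differences ranged from -0.52 to 0.27 with a median of -0.13. Since the neighbours were taken after the values were seen, nothing is read from their counts. HDAC6, a deacetylase reported to bind CD133, had 21.6 and 19.8 FPKM in KO libraries and 18.6 and 20.0 FPKM in EV control libraries, and its groups overlapped.

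BMI1 was listed at 7.82 and 8.35 FPKM in the KO libraries, against 5.58 and 4.05 FPKM in the EV control libraries. The KO libraries lay above the EV control libraries, with a log2 difference of 0.66 (SE 0.15). The EV control libraries differed by a factor of 1.38, a gap that 2.83% of tested genes exceeded. BMI1 shares its exons with COMMD3-BMI1, a read-through transcript that joins exons of COMMD3 to those of BMI1 and is listed as a gene of its own. Reads on shared exons are divided between these entries by estimation, so the BMI1 level by itself is uncertain. COMMD3-BMI1 had 19.3 and 20.8 FPKM in KO libraries, against 12.6 and 15.5 FPKM in EV control libraries. COMMD3, a member of a family of endosomal trafficking proteins, had 50.9 and 48.2 FPKM in KO libraries, against 30.4 and 28.7 FPKM in EV control libraries.

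The 3 entries together were steadier than any of them alone. Their summed level was 78.0 and 77.4 FPKM in KO libraries, against 48.6 and 48.3 FPKM in EV control libraries, so that replicates of a group differed by factors of 1.01 in both groups. The ratio of the summed means was 1.60 and the log2 difference 0.67. Entries that contain BMI1, that is BMI1 plus COMMD3-BMI1, summed to 27.1 and 29.2 FPKM in KO libraries and 18.2 and 19.6 FPKM in EV control libraries, a ratio of 1.49. The share of that sum listed under BMI1 was 28.8% and 28.6% in KO libraries, against 30.6% and 20.7% in EV control libraries. Adding the entries was a choice made after their values were seen. COMMD3 itself missed the threshold over all genes (difference 0.73, SE 0.080, limma-trend, adjusted p = 0.116), as did COMMD3-BMI1 (0.49, SE 0.12, adjusted p = 0.209).

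**Figure D1:**
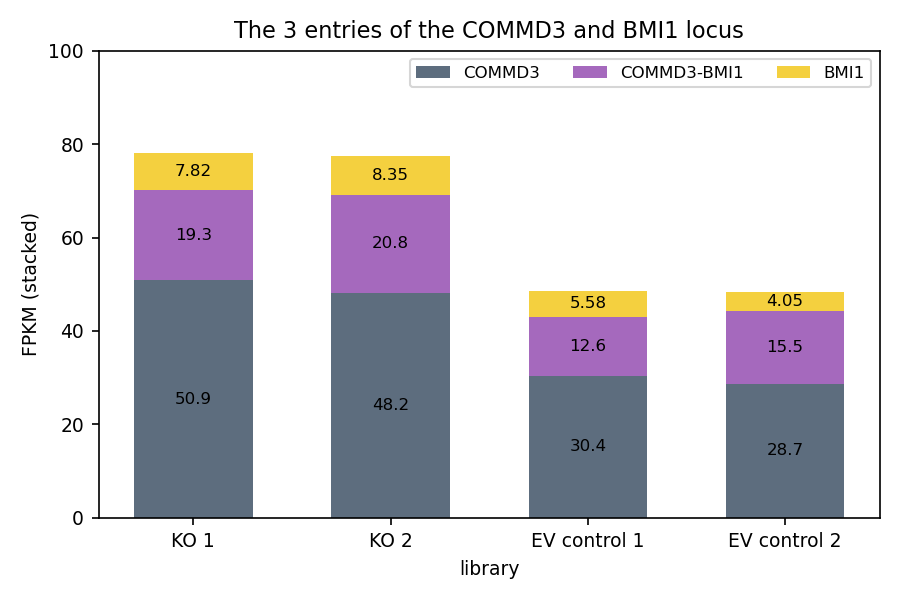
Stacked FPKM of COMMD3, the COMMD3-BMI1 read-through and BMI1 (y axis, from 0) in each of the 4 libraries (x axis). The stacks reach 78.0 and 77.4 FPKM in KO replicates 1 and 2, against 48.6 and 48.3 FPKM in EV control replicates 1 and 2. Segments differ more between EV control replicates 1 and 2, with BMI1 at 5.58 and 4.05 FPKM and COMMD3-BMI1 at 12.6 and 15.5 FPKM.

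The neighbours of BMI1 on chromosome 10 were compared in the same way. Of the 10 tested neighbours of BMI1, COMMD3 and COMMD3-BMI1 among them, 7 had both KO libraries above both EV control libraries and 1 had them below. Among all tested genes these shares were 26.5% above and 25.6% below. DNAJC1, a chaperone of the endoplasmic reticulum, had 15.0 and 18.7 FPKM in KO libraries, against 11.1 and 12.7 FPKM in EV control libraries. PIP4K2A, a phosphoinositide kinase gene on the other side, had 21.8 and 25.2 FPKM in KO libraries and 19.7 and 19.01 FPKM in EV control libraries. MLLT10 lay lower, at 13.3 and 13.8 FPKM in KO libraries, against 16.0 and 15.4 FPKM in EV control libraries. The neighbours' differences ranged from -0.20 to 0.73 with a median of 0.27, and none passed the test over all genes (limma-trend). At an unadjusted p under 0.05, 5 of the 10 were higher, COMMD3 and COMMD3-BMI1 among them, beside 9.23% of all tested genes. COMMD3-BMI1 shares exons with BMI1, and the neighbours were taken after the values were seen, so nothing is read from these counts.

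BMI1 is a Polycomb protein, and genes of other Polycomb proteins, with the target CDKN2A, were compared as a list of 21, all tested. None passed the threshold over all genes (limma-trend, adjusted p under 0.05). At unadjusted p under 0.05, CBX7 was the 1 gene higher and CBX6 the 1 gene lower, beside 9.23% and 7.22% of all tested genes. Their median log2 difference was 0.05, beside 0.00 over all tested genes. The listed genes with the highest levels were PHC2, RING1, CBX6 and EZH2. PHC2, a subunit of the same complex as BMI1, had 87.6 and 56.6 FPKM in KO libraries, against 53.3 and 50.1 FPKM in EV control libraries. RING1, a ubiquitin ligase subunit, had 36.3 and 41.7 FPKM in KO libraries, against 33.6 and 34.2 FPKM in EV control libraries. CBX6, a chromodomain subunit, had 32.5 and 33.0 FPKM in KO libraries, against 39.1 and 38.9 FPKM in EV control libraries. EZH2, the histone methyltransferase of Polycomb repressive complex 2, differed little, with 35.3 and 34.3 FPKM in KO libraries and 33.5 and 33.6 FPKM in EV control libraries. CDKN2A, a known target of BMI1 repression, had 27.9 and 25.8 FPKM in KO libraries and 31.4 and 27.2 FPKM in EV control libraries, so its groups overlapped.

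LGR5 and ASCL2, the markers of crypt base cells, were at or near 0. LGR5 was listed at 0 in KO replicate 1, at 0.0172 FPKM in KO replicate 2, and at 0.0167 and 0.0163 FPKM in the EV control replicates. At the longest transcript these 3 values above 0 correspond to about 1 fragment each, so no difference could be read from them. ASCL2 was listed at 0 in all 4 libraries. Neither reached the minimum for testing, 1 FPKM in at least 2 libraries, which the other 8 members met in all 4 libraries. LGR4, a receptor related to LGR5, was measured at 3.07 and 2.91 FPKM in KO libraries, against 2.41 and 2.29 FPKM in EV control libraries. Its difference of 0.25 (SE 0.11) missed the threshold (limma-trend, adjusted p = 0.338). LGR6, the other relative, stayed under 0.1 FPKM in every library. Of the R-spondin ligands, RSPO4 reached 0.941 and 1.0005 FPKM in KO libraries, against 0.859 and 0.778 FPKM in EV control libraries. RSPO1 had 0.0611 and 0.388 FPKM in KO libraries and was listed at 0 and 0.0280 FPKM in EV control libraries. RSPO2 stayed under 0.1 FPKM, and RSPO3 was listed at 0 throughout.

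SOX9 was the member on which the KO libraries differed most. It stood at 56.6 FPKM in KO replicate 1 and 27.8 FPKM in KO replicate 2, against 46.6 and 47.4 FPKM in the EV control replicates. One KO library was thus above and the other below both controls, which lay within a factor of 1.02 of each other. On the log2 scale the KO libraries stood at 0.26 and -0.74 from the EV control mean, and KO replicate 2 minus KO replicate 1, -0.998, was a gap that 1.63% of tested genes exceeded. The group means, 42.2 ± 20.3 FPKM in KO and 47.0 ± 0.565 FPKM in EV control cells (SD, n = 2 each), hide this split. SOX9-AS1, its antisense entry, had 1.36 and 0.525 FPKM in KO libraries, against 0.899 and 0.749 FPKM in EV control libraries. KO replicate 1 was again highest and KO replicate 2 lowest, and the entry fell short of the minimum for testing. The use of strand in counting is not given, so reads of both entries may not be told apart. LINC00673, the next tested gene beyond SOX9, had 14.5 and 8.30 FPKM in KO libraries, against 10.01 and 10.9 FPKM in EV control libraries. Among relatives, SOX8 ran the other way, with 1.996 and 4.65 FPKM in KO libraries against 2.08 and 2.21 FPKM in EV control libraries, and SOX10 was listed at 0.

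LRIG1, an antagonist of ERBB receptors, was the least abundant of the 8 members tested in the KO libraries. It had 2.11 and 1.24 FPKM in KO libraries, against 2.30 and 2.49 FPKM in EV control libraries. Both KO libraries lay below both EV control libraries, KO replicate 1 by a narrow margin. KO replicate 1 kept 87.9% and KO replicate 2 kept 51.7% of the EV control mean, and the log2 difference was -0.36 (SE 0.19). KO replicate 1 taken singly gave -0.13 and KO replicate 2 gave -0.60. At the longest transcript these levels correspond to about 139 and 84.2 fragments in KO libraries and 158 and 176 fragments in EV control libraries. LRIG2 and LRIG3 had 2.84 to 4.15 FPKM across the 4 libraries, and their groups overlapped.

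CD44 was the most abundant member in every library. It had 149.97 and 176.9 FPKM in KO libraries, against 186.5 and 185.8 FPKM in EV control libraries. Both KO libraries lay below the EV control libraries, which agreed within a factor of 1.004, and the log2 difference was -0.19 (SE 0.11). KO replicate 1 by itself gave -0.31 and KO replicate 2 gave -0.07. CD44 is known for alternative splicing into variant forms, which a level per gene does not resolve. The splicing regulators ESRP1 and ESRP2, which promote inclusion of its variant exons, had overlapping groups. ESRP1 had 64.3 and 48.7 FPKM in KO libraries and 54.9 and 55.9 FPKM in EV control libraries, and ESRP2 had 15.5 and 16.4 FPKM in KO libraries and 16.0 and 16.1 FPKM in EV control libraries. EZR and MSN encode ezrin and moesin, which tie CD44 to actin, and both lay lower in both KO libraries. EZR had 621.6 and 561.8 FPKM in KO libraries, against 691.4 and 696.6 FPKM in EV control libraries. MSN had 61.3 and 46.5 FPKM in KO libraries, against 65.4 and 63.6 FPKM in EV control libraries. Neither passed the test (limma-trend, adjusted p = 0.363 and 0.417). RDX, the radixin gene of the same family, had overlapping groups.

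ALCAM, the CD166 gene, had 25.9 and 21.0 FPKM in KO libraries and 23.0 and 25.9 FPKM in EV control libraries. The groups overlapped, with a log2 difference of -0.06 (SE 0.13), 0.08 in KO replicate 1 and -0.21 in KO replicate 2. CD6, its ligand on T cells, was listed at 0. L1CAM, another binding partner of ALCAM, had 4.68 and 6.76 FPKM in KO libraries, against 4.47 and 4.35 FPKM in EV control libraries (limma-trend, adjusted p = 0.441). The related adhesion gene BCAM had overlapping groups between 26.3 and 31.6 FPKM. MCAM, another relative, had 7.19 and 17.8 FPKM in KO libraries, on either side of 12.2 and 11.3 FPKM in EV control libraries.

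MSI1 and MSI2 encode the Musashi proteins, and the difference between them was not tested. MSI1 had 6.70 and 8.47 FPKM in KO libraries, against 6.49 and 5.98 FPKM in EV control libraries. Both KO values exceeded both EV control values, KO replicate 1 by a narrow margin, and the log2 difference was 0.24 (SE 0.13). Taken by itself, KO replicate 1 gave 0.09 and KO replicate 2 gave 0.39. MSI2 had 32.5 and 25.6 FPKM in KO libraries and 27.3 and 30.6 FPKM in EV control libraries, and its groups overlapped with a log2 difference of -0.0035 (SE 0.14), 0.16 in KO replicate 1 and -0.17 in KO replicate 2. NUMB, whose mRNA Musashi is known to repress, had 21.9 and 17.6 FPKM in KO libraries, against 16.1 and 16.3 FPKM in EV control libraries, a difference of 0.26 that missed the threshold (SE 0.12, limma-trend, adjusted p = 0.360). DAZAP1, a related RNA-binding protein gene, had overlapping groups between 72.9 and 92.6 FPKM. LYVE1, a hyaluronan receptor related to CD44, stayed under 0.2 FPKM.

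**Figure D2:**
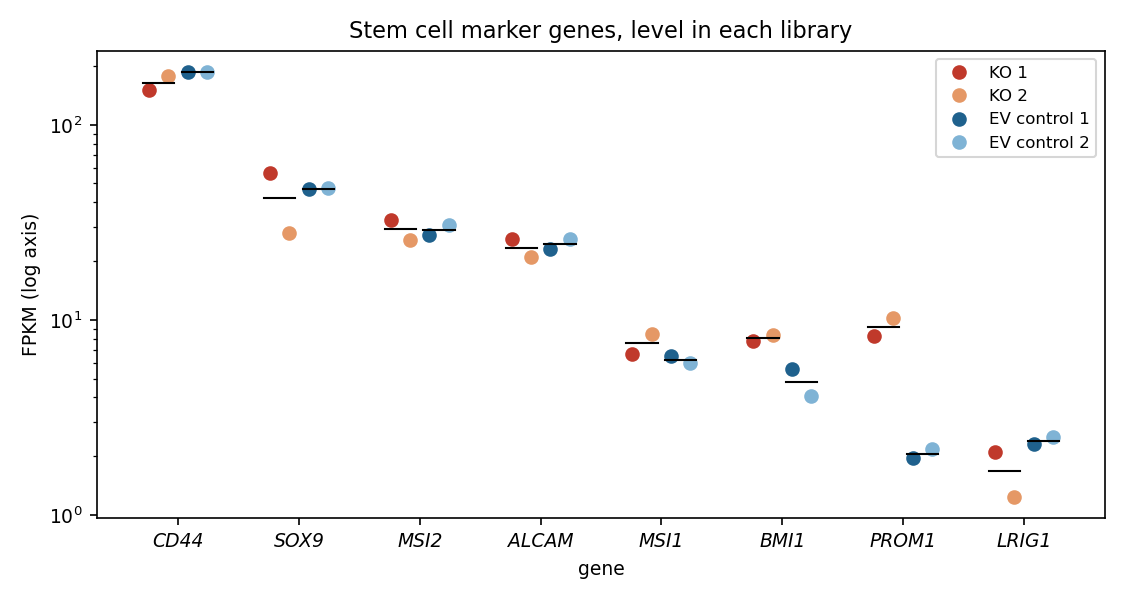
FPKM of the 8 marker genes above the minimum (log y axis) in each library, by gene (x axis), with a line at each group mean. PROM1 lies at 8.24 and 10.2 FPKM in KO libraries, against 1.95 and 2.17 FPKM in EV control libraries, and SOX9 at 56.6 and 27.8 FPKM in KO libraries, on either side of its EV control values. LGR5 and ASCL2, at or near 0, are not drawn.

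By mean level in KO cells, the order was CD44, SOX9, MSI2, ALCAM, PROM1, BMI1, MSI1, LRIG1, LGR5 and ASCL2. In EV control cells it was CD44, SOX9, MSI2, ALCAM, MSI1, BMI1, LRIG1, PROM1, LGR5 and ASCL2. PROM1 thus stood in place 5 in KO cells and in place 8 in EV control cells. In KO cells the FPKM ranges of SOX9 and MSI2, MSI2 and ALCAM, PROM1 and BMI1, and BMI1 and MSI1 overlapped, as did those of LGR5 and ASCL2 near 0. In EV control cells no neighbours in the order overlapped, although LRIG1 (2.40 ± 0.133 FPKM) and PROM1 (2.06 ± 0.155 FPKM, SD, n = 2 each) lay close.

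Over the 8 members tested, no common direction was seen. Both KO values exceeded both EV control values for PROM1, BMI1 and MSI1, fell short of them for CD44 and LRIG1, and overlapped them for ALCAM, MSI2 and SOX9. That is 3 above and 2 below, beside 26.5% and 25.6% of all tested genes. Past the adjusted threshold were 0 of the 8 (limma-trend, Benjamini-Hochberg, 0.05), beside 0.11% of all tested genes (0.0551% higher and 0.0551% lower). The count was 1 higher with pseudocounts of 0.1 or 0.5, median-of-ratios scaling or the replicate block. Over all 12701 tested genes those settings gave 8, 8, 8 and 4 higher. At unadjusted p under 0.05 (limma-trend), 2 of the 8 members were higher and 0 lower, beside 9.23% and 7.22% of all tested genes. Since this comparison served to choose the members, nothing is read from these counts. The median log2 difference of the 8 was -0.03, beside 0.00 over all tested genes. KO replicate 1 alone gave 0.13 and KO replicate 2 alone -0.12. Without EV control replicate 1 the median was -0.11, and without EV control replicate 2 it was 0.05. The sign of the median thus depended on which library was taken, in either group.

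**Figure D3:**
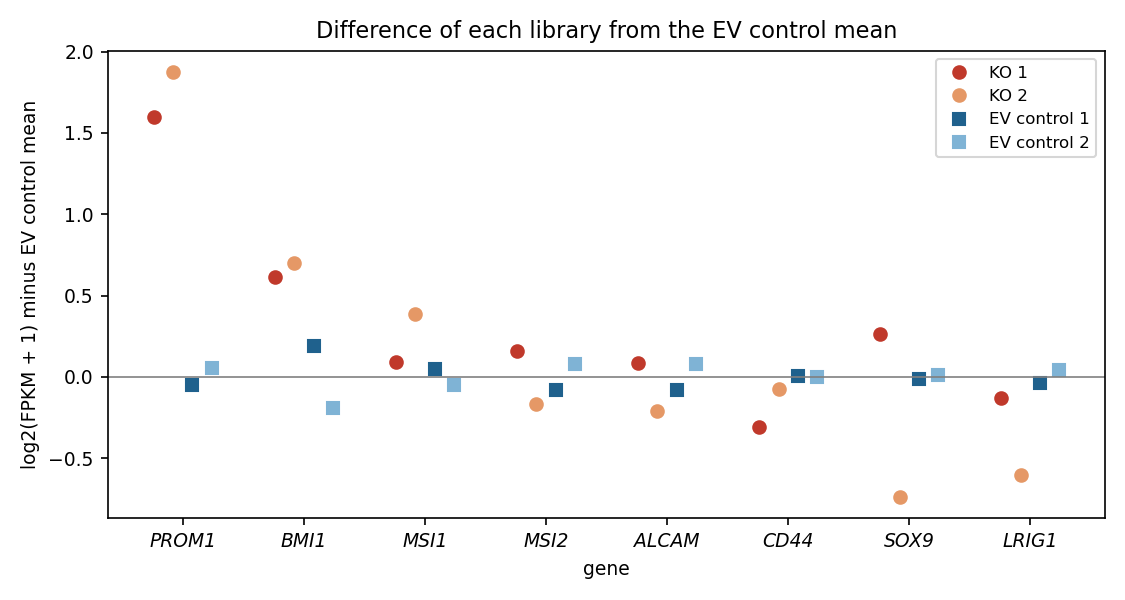
Difference of each library from the EV control mean on the log2(FPKM + 1) scale (y axis) for the 8 marker genes above the minimum (x axis); circles are KO and squares EV control libraries. PROM1 lies at 1.60 and 1.87 in KO libraries and SOX9 at 0.26 and -0.74, and the EV control points spread most for BMI1.

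Of 15 relatives of the members by family, 8 were tested, and of 15 partners or targets 9 were tested. None in either list passed the threshold (limma-trend). At unadjusted p under 0.05 the relatives had 0 higher and 0 lower, and COMMD3 was the 1 partner higher, with 0 lower, beside 9.23% and 7.22% of all tested genes. Other genes of intestinal stem cells were compared next. Of 20 such genes, 14 were tested, and none passed the threshold over all genes (limma-trend, adjusted p under 0.05). At unadjusted p under 0.05, RNF43, EPHB2, EPHB3 and MYB made 4 higher, with 0 lower, beside 9.23% and 7.22% of all tested genes. The groups did not overlap for 8 of the 14, KO being above for 5 and below for 3, beside 26.5% and 25.6% of all tested genes. The 3 below were CDCA7, CDK6 and ZNRF3. The list was chosen with earlier results of these data known, so nothing is read from these counts. The 4 of highest level were CLU, SOX4, CDCA7 and RNF43. CLU, a gene of regenerating crypts in the mouse, had 56.8 and 89.5 FPKM in KO libraries, on either side of 79.6 and 75.8 FPKM in EV control libraries. SOX4, a transcription factor gene, had 55.8 and 14.9 FPKM in KO libraries, against 24.5 and 23.5 FPKM in EV control libraries. KO replicate 1 was above and KO replicate 2 below both controls, as for SOX9. CDCA7 had 23.0 and 27.4 FPKM in KO libraries, against 28.8 and 32.6 FPKM in EV control libraries. RNF43, a ubiquitin ligase that removes Frizzled receptors, had 29.9 and 19.7 FPKM in KO libraries, against 7.96 and 8.30 FPKM in EV control libraries (difference 1.47, SE 0.20, limma-trend, adjusted p = 0.136). OLFM4 and HOPX were listed at 0 in all libraries, and SMOC2, IGFBP4 and AQP4 each in 3 of 4.

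Among 20 other stem cell and cancer stem cell markers, 10 were tested. None of the 10 passed over all genes (limma-trend). At unadjusted p under 0.05, EPCAM and DPP4 made 2 higher, with 0 lower, beside 9.23% and 7.22% of all tested genes. DPP4 had 1.12 and 2.18 FPKM in KO libraries, against 0.316 and 0.380 FPKM in EV control libraries. It met the minimum for testing only through the group where it was high. The list was also chosen with earlier results known, so nothing is read from these counts. EPCAM, the epithelial adhesion gene used beside CD44 in sorting, had 283.6 and 313.9 FPKM in KO libraries, against 237.1 and 235.5 FPKM in EV control libraries (limma-trend, adjusted p = 0.238). ALDH1A3, an aldehyde dehydrogenase gene, was split, with 202.9 and 80.8 FPKM in KO libraries against 196.3 and 197.1 FPKM in EV control libraries. CD9, a tetraspanin gene, and ITGB1, the β1 integrin gene, had overlapping groups between 141.5 and 196.1 FPKM. The pluripotency genes NANOG, POU5F1 and SOX2 stayed under 1 FPKM, and ALDH1A1 and KIT were listed at 0.

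Intestinal differentiation genes mostly stayed under the 1 FPKM minimum, with 5 of 20 tested. None passed over all genes (limma-trend). Counts at unadjusted p under 0.05 were 0 higher and 0 lower, beside 9.23% and 7.22% of all tested genes. With 5 genes tested, nothing is read from these counts. The groups did not overlap for CA2, KRT20 and LYZ. KO was below for these 3 and above for 0, beside 25.6% and 26.5% of all tested genes. LYZ had 1.0004 and 0.702 FPKM in KO libraries, against 1.31 and 1.17 FPKM in EV control libraries. CA2, a carbonic anhydrase gene, had 29.4 and 26.7 FPKM in KO libraries, against 32.3 and 32.7 FPKM in EV control libraries. KRT20, a keratin of mature colonocytes, had 1.23 and 1.15 FPKM in KO libraries, against 1.80 and 1.63 FPKM in EV control libraries. KLF5 and CDX2, transcription factor genes, had overlapping groups. FABP1, CDX1, ALPI, SI, TFF3 and CA1 were listed at 0 in all libraries.

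**Figure D4:**
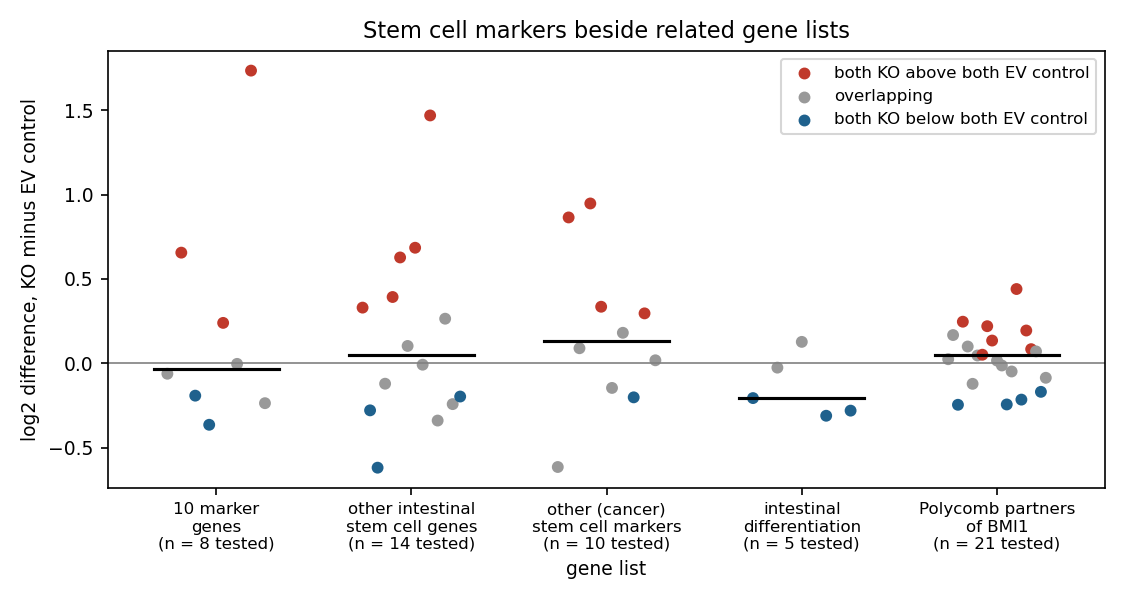
Log2 difference, KO minus EV control, of each tested gene (y axis) in 5 gene lists (x axis), with a black line at the list median. PROM1 at 1.73 and RNF43 at 1.47 are the highest points, and the medians run from -0.21 for differentiation genes to 0.13 for other stem cell markers.

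Genes whose level pattern over the 4 libraries was nearest to that of PROM1 were sought among 10326 candidates with a mean of at least 3 FPKM, by the Euclidean distance between centred log2(FPKM + 1) profiles. SAT1, a polyamine acetyltransferase gene, was nearest at a distance of 0.22, with 1117 and 1513 FPKM in KO libraries against 434.9 and 396.9 FPKM in EV control libraries. NOTUM, whose secreted product strips a lipid from Wnt proteins, followed at 0.33, with 9.81 and 12.1 FPKM in KO libraries against 3.58 and 3.16 FPKM in EV control libraries. RNF5, TNNC1 and CRYM followed at distances up to 0.45. In EV control libraries RNF5 had 0.985 and 0.980 FPKM and CRYM had 1.47 and 1.48 FPKM. These genes met the candidate minimum of 3 FPKM only through their KO values. For BMI1 the nearest were FAM171A2, SKAP1, ART5, TMC6 and CNFN, at distances from 0.05 to 0.14. These profiles were picked for nearness to BMI1, so sharing its lower value in EV control replicate 2 follows from the choice. The summed COMMD3 and BMI1 entries differ between EV control libraries by a factor of 1.01. With 4 libraries, likeness of pattern describes these samples alone.

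**Figure D5:**
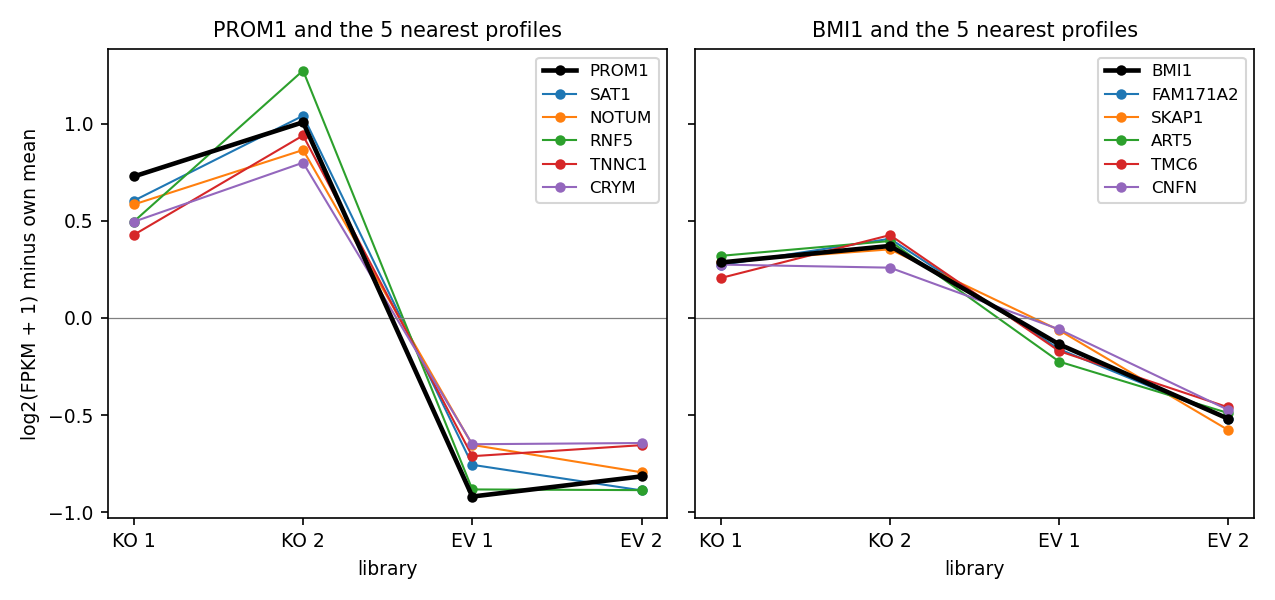
Centred log2(FPKM + 1) (y axis) of PROM1 (left) and BMI1 (right), in black, and of the 5 genes with the nearest profiles, over the KO and EV control libraries (x axis); lines join the values of a gene. PROM1 and its nearest genes lie above their mean in both KO libraries and below it in both EV control libraries. The BMI1 group drops further in EV control replicate 2. Both groups were chosen for this likeness.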

How the data were processed

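Total RNA of 2 C14orf159 KO and 2 EV control HCT116 samples was made into libraries with the TruSeq stranded mRNA kit, per the labels' protocols. Each deposited file gives FPKM for gene symbols, as the authors computed it. Per the submitters' processing notes, the tools were Cuffnorm 2.2.1, SAMtools 0.1.19, TopHat2 2.0.13 and Bowtie2 2.2.3, with build hg19. The annotation, the strand setting of the counting and Cuffnorm's scaling: not given in the sources used here.

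Genes with at least 1 FPKM in at least 2 libraries (12701) were fitted as log2(FPKM + 1) with limma 3.58.1 (lmFit, eBayes with trend, R 4.3.3) on group alone, and p-values were adjusted by Benjamini-Hochberg over all tested genes. With 2 libraries a group, the spread has few degrees of freedom. The fit was tested on simulated data. Fragment numbers rest on 2008 genes with a single GENCODE release 29 transcript of 1000 to 6000 nt, from the median of FPKM times length between 0.06 and 0.1, a preset window that bounds them. They are rough and no library totals. Neighbours were taken from RefSeq gene order (98.5% of tested genes placed) after the values were seen.

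The members and lists were chosen with earlier results of these data known. Named genes were all members, their relatives and partners, the 4 genes of highest level in each further list, and the 5 nearest profiles of PROM1 and BMI1, small RNA, LOC and LINC symbols left out. Other genes were named after their values were seen. Relatives of ASCL2 are not reported here. Alternatives were pseudocounts, filters, scalings, limma without trend, a replicate block and leaving out each library.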

Additional observations from a re-analysis of the deposited data

How the results depend on the processing

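The count of marker genes past the adjusted threshold, 0 higher and 0 lower as reported, was 1 higher with pseudocounts of 0.1 or 0.5, median-of-ratios scaling or the replicate block. It was 0 with no filter, a 5 FPKM filter, quantile normalization, limma without the trend, and without small RNA genes, a setting added after seeing the data. Leaving out a library gave 0 to 2 higher and 0 to 2 lower. Without KO replicate 1 the counts were 2 and 2, and without KO replicate 2 they were 2 and 1. In both fits the lone KO library is assumed to vary like the EV control libraries. Over all genes, 7 higher and 7 lower, the counts were 3 and 3 with no filter, 3 higher without the trend, 4 lower with quantile normalization and 0 and 0 without small RNA genes (limma-trend, 1226 higher and 945 lower at unadjusted p under 0.05). With the replicate block 4 were higher; the replicate numbers share only a number (correlation of same-numbered deviations -0.0046). Leaving out a library gave 6 to 1381 higher and 5 to 881 lower. The cause of these shifts was not tested. The log2 difference of PROM1 ran from 1.60 to 2.10 over all settings, and that of BMI1 from 0.46 to 0.85, with 0.55 for BMI1 summed with COMMD3-BMI1, also added later. Leaving out a library moved CD44 between -0.31 and -0.07, LRIG1 between -0.60 and -0.13 and MSI1 between 0.09 and 0.39. Without 1 KO library, ALCAM, MSI2, SOX9 and the members' median (-0.12 to 0.13) took either sign. Without 1 EV control library, ALCAM (-0.14 and 0.02), MSI2 (-0.08 and 0.08) and the members' median (-0.11 and 0.05) also did. SOX9 then stayed negative (-0.25 and -0.22). LGR5 and ASCL2 lay at or near 0, so no difference was detectable for them. Whether greater depth would show one was not tested.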
